A study of Mus musculus with 6 samples.

Results

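Brain DNA carried 1331 regions enriched for 5-hydroxymethylcytosine (5hmC) in control mice that lay more than 10 kb from any region enriched after ischemic injury. They are called distant control-only peaks here. They were chosen by their positions in the 2 peak lists: edge to edge, it was measured how far each control-list peak on chromosomes 1 to 19 lay from the nearest injury-list peak. The 1331 peaks were 6.48% of the 20555 control-list peaks on these chromosomes (exact binomial 95% interval 6.14 to 6.82%). The share depends on the length of the injury list: with the highest-scoring 20555 injury-list peaks alone it was 23.2% (4768 peaks), and with those at or above the control median score 14.4% (2952 peaks). Another 2503 control-list peaks (12.2%) had no overlap with the injury list but an injury-list peak within 10 kb, and 16721 (81.3%) overlapped one by at least 1 bp. The positions in both lists chose the distant peaks, so their number and their distances are a description and not a test of the injury.

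The samples were brain DNA of 6 C57BL/6 mice, 3 with ischemic injury (I/R in the labels) and 3 controls with matched tissue. The sources used here do not state age, sex, brain region, time after injury or the handling of the controls. The assay was hMe-Seal, which tags the 5hmC base with a modified sugar by which DNA fragments that carry it are pulled out for sequencing. The data were 1 peak list per group on the mm9 genome, with 53341 peaks on the same chromosomes in the injury list. There were no values for single mice and the read depth behind each list is unknown, so the variation among mice cannot be weighed in any comparison. The intervals below cover counting error alone and treat neighbouring peaks as independent.

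5hmC arises when TET enzymes oxidise 5-methylcytosine. It is both a step in the removal of DNA methylation and a lasting mark, and brain, neurons above all, holds more of it than most tissues. In brain it is known to be enriched over the bodies of active genes and at enhancers, which places it unevenly along chromosomes. A peak caller reports a region when reads pile up there beyond the background it models, so a region missing from a list was not called and need not be free of 5hmC.

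The highest-scoring distant peaks were regions of 1.53 to 5.04 kb on 8 different chromosomes. The first was chr11:11924040-11927600, 3.56 kb wide, with a score of 820.54, which ranked 176 in the control list. The score was deposited by the authors with each peak and comes from the peak caller. The nearest injury-list peak was 167.5 kb away and the nearest other control-list peak 3365 kb away, so this region stood by itself in the control list. The second was chr6:49344910-49346437, 1.53 kb wide, with a score of 657.13 and 56.9 kb to an injury-list peak. The third was chr18:13130787-13133235, 2.45 kb wide, with a score of 507.33 and 39.8 kb to an injury-list peak. These 3 were the only distant peaks among the 500 highest-scoring control-list peaks, and none was among the highest 100.

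The next 7 by score ranged from 399.93 down to 327.97. The fourth, chr5:28783851-28787295, was 3.45 kb wide with a score of 399.93, and lay 36.8 kb from an injury-list peak. The fifth, chr1:168167842-168169670, scored 370.87 at 1.83 kb wide, 46.2 kb from an injury-list peak. The sixth, chr13:113441412-113443479, scored 370.06 at 2.07 kb wide, 54.5 kb away. The first 6 thus all lay well beyond the 10 kb limit. The seventh, chr12:111423227-111428270, was the exception among the 10, with an injury-list peak 13.3 kb away. It was also the widest of the 10 at 5.04 kb, with a score of 368.21.

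The eighth was chr6:58855929-58857861, 1.93 kb wide, with a score of 339.93 and an injury-list peak 25.1 kb away. Like the leading chromosome 11 region it had no other control-list peak within 500 kb. The ninth, chr5:143847097-143848939, lay in the opposite kind of place, with 51 other control-list peaks and 88 injury-list peaks within 500 kb. It was 1.84 kb wide, scored 330.21 and was 65.9 kb from an injury-list peak. The injury list had no peak between -82.7 and 66.8 kb from its centre, and dense peaks of both lists lay farther out. The tenth, chr15:74915596-74918240, was 2.65 kb wide with a score of 327.97, and its nearest injury-list peak was 123.8 kb away. High-scoring distant peaks therefore occurred both in peak-poor and in peak-rich surroundings.

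**Figure D1:**
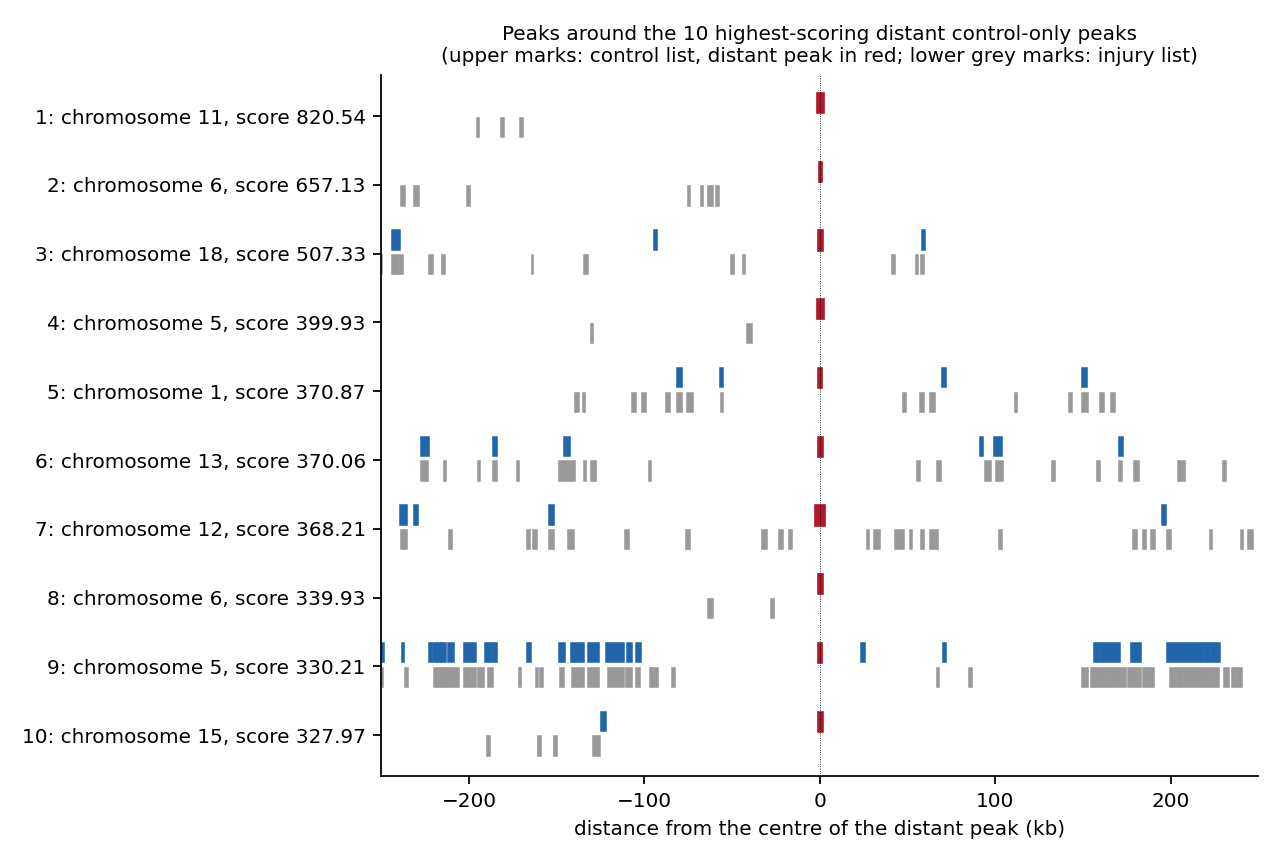
Peaks of both lists within 250 kb of the 10 highest-scoring distant control-only peaks, ordered by score. Each row is 1 region, the horizontal axis is the distance in kb from its centre, and marks show peak extents. The row for chromosome 11 holds no other control-list peak, while the ninth row, on chromosome 5, holds 26 control-list peaks with the distant one counted.

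The map of these 10 regions shows surroundings of both kinds. In 4 of the 10 the distant peak was the only control-list peak within 250 kb. In 5 of the 10, the regions of chromosomes 6, 11 and 15 and the upper one of chromosome 5 in the map, the injury-list peaks within 250 kb lay on 1 side only. In all 5 this was the side of lower coordinates, a pattern seen after the map was drawn. The other 5 had injury-list peaks on both sides, from 12 to 48 of them.

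Most distant control-only peaks had low scores. Their median score was 62.84 (quartiles 55.23 and 82.475, lowest 50.01), compared with 64.77 for control-only peaks within 10 kb of the injury list and 84.99 for overlapping peaks. A score under 60 was held by 572 of them (43.0%), by 38.0% of the nearer control-only peaks and by 19.5% of the overlapping ones. The smallest score in either list was 50, so these regions sat just above what the caller reported at all. The lowest belonged to chr17:43124985-43126684, with 50.01. The distant and the nearer control-only peaks thus had nearly the same scores, and both classes lay below the overlapping peaks.

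Scores of 200.962 or more, the highest 10% of the control list, were reached by 30 distant peaks. Their median distance to an injury-list peak was 38.8 kb, and that of the other 1301 was 27.8 kb. The share of control-list peaks that were distant fell with score, apart from a small rise, from 5.98% to 6.33%, in the middle of the list. Among the 10% of peaks that scored lowest it was 12.5% (11.1 to 14.1%), and among the 10% that scored highest it was 1.46% (0.987 to 2.08%). Against the 6.48% of the whole list, low-scoring peaks were more often distant and high-scoring ones less often, each by more than counting error.

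Width set the distant peaks further apart. Their median width was 1909 bp (quartiles 1613.5 and 2458.5 bp), against 2192 bp for the nearer control-only peaks and 2807 bp for overlapping peaks. Together they covered 2.81 Mb of the 63.0 Mb in the control list. Of the narrowest 20% of control-list peaks, up to 1881 bp, 15.7% (14.6 to 16.8%) were distant, and of the widest 20%, from 3907 bp, 0.876% (0.614 to 1.21%). Distances were taken from peak edges, so a wider peak reaches closer to its neighbours, and the part of this in the widths was not tested.

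Peaks of like score showed the same order of widths. When the control list was cut by score into 10 equal classes, in every class the distant peaks had the smallest median width and the overlapping peaks the largest. In the class of lowest scores the medians were 1743 bp for distant, 1894 bp for nearer control-only and 2122.5 bp for overlapping peaks. In the class of highest scores they were 2123 bp, 3008 bp and 4661 bp. Overlapping peaks grew steeply wider with score, whereas distant peaks did so by a far smaller margin. Among peaks of like width, distant peaks had a lower median score than overlapping peaks in all 5 width classes. In the narrowest 20% the median scores were 60.05 for distant, 59.65 for nearer control-only and 63.46 for overlapping peaks, and in the widest 20% they were 101.5, 118.7 and 150.4.

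**Figure D2:**
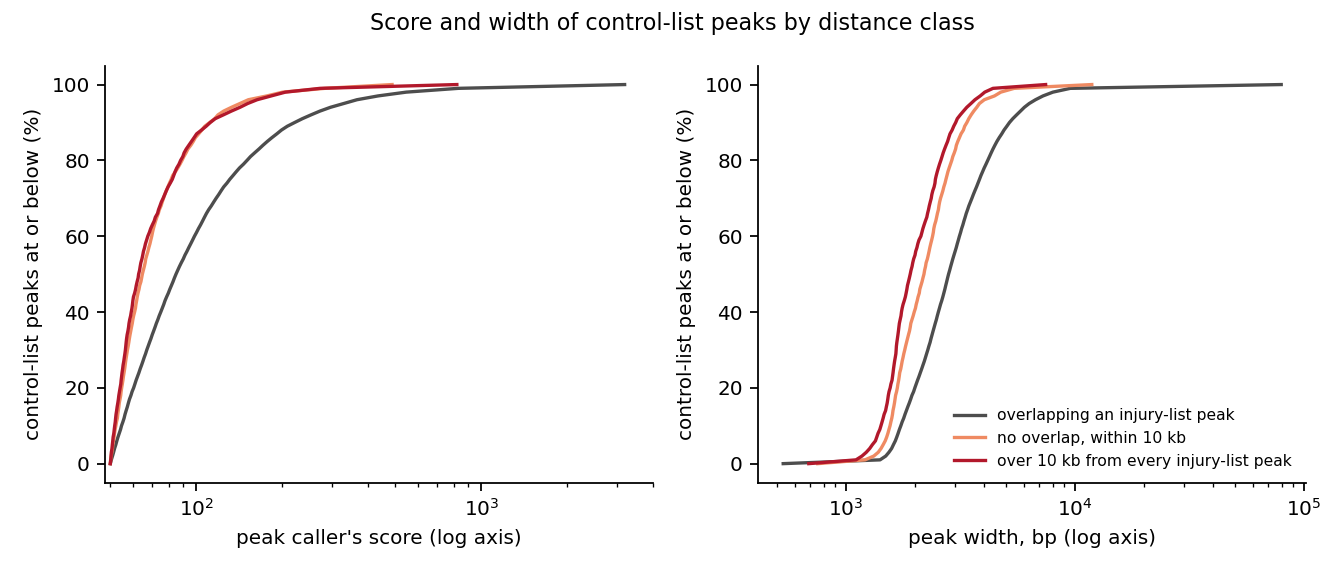
Cumulative share of control-list peaks (vertical axis, %) against the peak caller's score (left, log axis) and peak width in bp (right, log axis), for 3 classes of distance to the injury list. The curves of the distant and the nearer control-only peaks lie together by score and apart by width, with medians of 1909 and 2192 bp, and overlapping peaks lie to the right of both.

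The widest distant peak was chr17:86020624-86028075, at 7.45 kb, with a score of 193.5 and an injury-list peak 87.0 kb away. The next was chr13:120275329-120282437, at 7.11 kb, with a score of 144.67. It had no other peak of either list within 500 kb, and its nearest injury-list peak was 1135 kb away. The third, chr15:59134866-59141568, was 6.70 kb wide with a score of 154.18, and had an injury-list peak at 13.4 kb. The fourth was chr5:147842004-147847841, at 5.84 kb with a score of 151.06, and the fifth the chromosome 12 region described above. The narrowest, chr5:15185431-15186118, spanned 688 bp with a score of 59.67 and lay 960.9 kb from the injury list. No distant peak reached 10 kb in width, while the widest control-list peak spanned 79679 bp.

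Distances to the injury list ran from just above the limit to several Mb. The median was 27.9 kb (quartiles 15.8 and 65.0 kb). Beyond 50 kb lay 421 distant peaks (31.6%, 29.1 to 34.2%), beyond 100 kb 222 (16.7%, 14.7 to 18.8%), beyond 500 kb 55 (4.13%) and beyond 1000 kb 29 (2.18%). Median score did not fall with distance, at 63.97 from 10 to 20 kb, 61.33 from 50 to 100 kb, 75.59 from 500 to 1000 kb and 68.7 beyond 1000 kb. Median width fell from 2156 bp from 10 to 20 kb to 1813 bp from 50 to 100 kb and 1613.5 bp from 200 to 500 kb. It was 1770 bp in the 26 peaks from 500 to 1000 kb and 1485 bp beyond 1000 kb. By median, the 29 peaks beyond 1000 kb were thus the narrowest of the distance classes, and their score was not the lowest.

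The remotest was chr6:77787244-77788700, with a score of 73.02, 3979 kb from the nearest injury-list peak. It was followed by chr3:14584637-14586424, with a score of 84.3 at 3939 kb, and chr9:4259670-4261413, with a score of 264.25 at 3511 kb. The other 2 of the 5 remotest were chr12:45375716-45377321, with a score of 65.96 at 3083 kb, and chr5:61459817-61460963, with a score of 268.9 at 2791 kb. All 5 were under 2 kb wide and none had another peak of either list within 500 kb. The scores on chromosomes 9 and 5 were in the highest 10% of the control list, those on chromosomes 3, 6 and 12 were not.

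The limit itself cut through a continuous range. The distant peaks closest to it were chr19:7327274-7329150 (10.026 kb, score 97.59), chr2:91936416-91939723 (10.031 kb, score 50.59) and chr4:137543643-137546883 (10.032 kb, score 158.53). The control-only peaks just on the other side were chr3:129772657-129774858 (9.999 kb, score 64.72), chr11:3773877-3776836 (9.981 kb, score 63.77) and chr7:80749283-80752002 (9.979 kb, score 70.75). The scores and the widths of these 6 regions overlapped across the limit.

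The ground more than 10 kb from the injury list was wide and thinly filled. It made up 1805 Mb of the 2370 Mb between the first and last peaks of the 19 chromosomes, or 76.2%. Distant control-only peaks came to 0.737 per Mb of this ground, and all other control-list peaks to 34.0 per Mb of the rest of the span. By midpoint, control-list peaks numbered 116.2 per Mb inside injury-list peaks and 13.4 per Mb within 1 kb of their edges. The density went on falling past the limit, from 3.04 per Mb at 10 to 20 kb and 0.976 per Mb at 50 to 100 kb to 0.0799 per Mb beyond 1000 kb. These densities count all control-list peaks, so those close to the edges include peaks that overlap the injury list. Past the limit they also include peaks whose midpoint lay over 10 kb away but whose edge did not, which are not distant peaks.

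**Figure D3:**
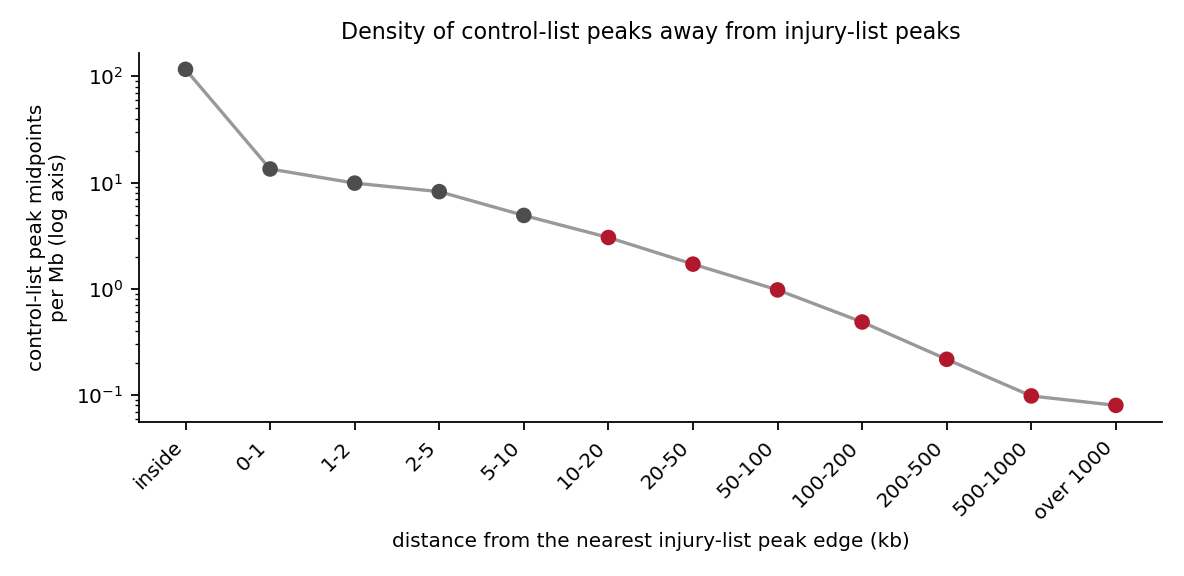
Control-list peak midpoints per Mb of ground (vertical log axis) by distance from the nearest injury-list peak edge in kb; each point is 1 distance class over chromosomes 1 to 19, and red points lie beyond 10 kb. The density falls at every step, from 116.2 per Mb inside injury-list peaks to 0.0799 per Mb beyond 1000 kb.

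Seen as gaps, the injury list had 11779 longer than 20 kb, and 1157 of them (9.82%, 9.29 to 10.4%) held a distant peak. A distant peak needs more than 10 kb on each side beside its own width, so gaps barely over 20 kb could not hold one. Occupied gaps rose with length from 3.68% (3.22 to 4.19%) of those of 20 to 50 kb to 33.4% (28.6 to 38.5%) of those over 1000 kb. Longer gaps have more room, so part of this rise is built in. Per Mb of gap the order was different, with 1.83 distant peaks in gaps of 50 to 100 kb and 0.158 in gaps over 1000 kb. Gaps of 20 to 50 kb held 1.24 per Mb. These gap lengths include the 10 kb at each end where no distant peak can lie, which lowers the values of short gaps most. A single distant peak was held by 1019 gaps, 2 by 114 and 3 or more by 24. The remaining 9 distant peaks lay outside the first or last injury-list peak of their chromosome.

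Few distant peaks had a close neighbour in their own list. Another control-list peak lay within 10 kb of 151 of them (11.3%, 9.69 to 13.2%), compared with 66.3% (64.4 to 68.2%) of the nearer control-only peaks and 67.3% (66.5 to 68.0%) of overlapping peaks. Part of this gap is built in, since a control-list peak next to an injury-list peak can seldom be a neighbour of a peak 10 kb from all of them. Of the 151, 98 had another distant peak as their nearest control-list peak, 47 a nearer control-only peak and 6 an overlapping one. Within 50 kb, 51.2% (48.5 to 54.0%) had another control-list peak, and within 100 kb 67.4% (64.8 to 69.9%). The median distance to the nearest control-list peak was 48.2 kb, and 456 (34.3%, 31.7 to 36.9%) were closer to a control-list than to an injury-list peak.

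Runs of neighbouring distant peaks were short. When distant peaks no more than 50 kb apart, with no other control-list peak between, were joined, 1116 (83.8%) remained single, 85 runs held 2 and 15 held 3, the longest found. The run with the highest summed score was on chromosome 5 (chr5:147833346-147847841), where 3 peaks of 3.50 to 5.84 kb followed each other at gaps of 0.324 and 0.312 kb, with scores of 231.02, 273.35 and 151.06. It filled 14.5 kb almost without a break, and the nearest injury-list peak was 12.2 kb away. The second run, chr7:86639226-86661369, was 22.1 kb long, with scores of 224.54, 63.99 and 126.62 and an injury-list peak at 29.1 kb. The third, chr2:128927036-128983284, spread over 56.2 kb, and only its middle peak scored high, with 54.62, 211.23 and 50.38 in order. The 3 peaks of the chromosome 5 run thus lay almost edge to edge, while the 3 of the chromosome 2 run were narrow and lay well apart.

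Distant peaks lay in thinly filled parts of the control list too. Within 500 kb they had a median of 9 other control-list peaks (quartiles 3 and 20) and 27 injury-list peaks (11 and 50). The nearer control-only peaks had 24 and 62, and overlapping peaks 28 and 71. The injury numbers are tied to how the peaks were chosen, and the part of that choice in the control numbers was not tested. Of the 213 control-list peaks with no other control-list peak within 500 kb, 99 were distant (46.5%, 39.6 to 53.4%). The share fell at every step of density, to 6.56% (5.83 to 7.34%) with 11 to 20 neighbours and 1.50% (1.21 to 1.83%) with 41 to 96.

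**Figure D4:**
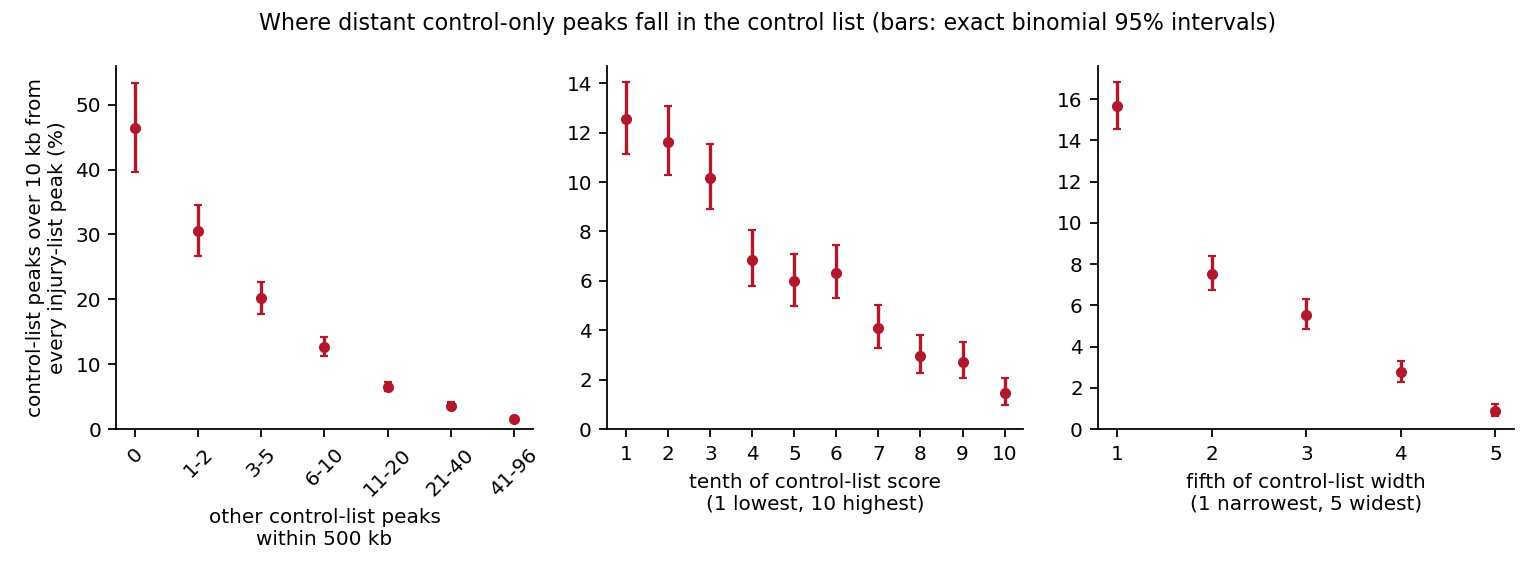
Share of control-list peaks that lay over 10 kb from every injury-list peak (%), by the number of other control-list peaks within 500 kb (left), by class of score, 10% of the list each (middle) and by class of width, 20% of the list each (right); bars are exact binomial 95% intervals. The share runs from 46.5% in the emptiest surroundings, a class of 213 peaks, to 1.50% in the fullest, and falls from the lowest to the highest class of score and of width.

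The median score of distant peaks stayed between 61.19 and 65.96 over all 7 classes of surroundings, whereas their width rose with density. With no other control-list peak within 500 kb they scored 65.96 in the median and were 1663 bp wide. With 41 or more such peaks these values were 65.77 and 2342 bp. Overlapping peaks had 82.75 and 2030.5 bp in the emptiest surroundings and 97.22 and 3124 bp in the fullest. A total of 45 distant peaks had no other peak of either list within 500 kb, with scores from 51.76 to 268.9 and a median width of 1608 bp.

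At the other extreme, 93 distant peaks lay among 41 or more control-list peaks. The 3 with the fullest surroundings were chr7:25606051-25608715, with 83 control-list and 124 injury-list peaks within 500 kb, chr11:116274586-116276288, with 83 and 140, and chr19:6183531-6185794, with 80 and 133. Their scores were 96.61, 68.97 and 140.06, and their distances to an injury-list peak 44.7, 13.7 and 18.4 kb. These 3 thus lay in densely marked ground, with the nearest other control-list peak 45.2, 1.36 and 27.3 kb away. Of the 1331, 12 had more control-list than injury-list peaks within 500 kb. The injury list was the longer, with 53341 peaks against 20555, and this count was not made for the other control-list peaks.

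By chromosome the distant share of the control list ran from 4.01% on chromosome 15 (45 of 1123, 2.94 to 5.33%) to 12.7% on chromosome 13 (72 of 568, 10.1 to 15.7%). Chromosome 3 followed with 10.6% (8.35 to 13.2%) and chromosome 19 with 9.49% (7.30 to 12.1%). At the low end were chromosome 17 with 4.39% (3.32 to 5.68%) and chromosome 4 with 4.73% (3.80 to 5.80%). The 5 chromosomes with the fewest control-list peaks per Mb (3, 14, 13, 1 and 6) together had 9.57% (8.62 to 10.6%), and the 5 with the most (15, 4, 5, 17 and 11) had 4.93% (4.46 to 5.43%). Peak-poor chromosomes thus had the larger distant share, by more than counting error. Chromosome 19 departed from that order, being the seventh densest and the third highest in share. The 5 sparse chromosomes also had fewer injury-list peaks, 13.9 to 17.3 per Mb against 28.2 to 35.6 per Mb on the 5 dense ones. Fewer injury-list peaks leave more ground far from them, and the part of this in the shares was not tested.

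Per Mb of ground beyond 10 kb from the injury list the order was a different one. Chromosome 19 had 1.42 distant peaks per Mb and chromosome 11 1.38, the most of all, followed by chromosome 9 with 1.04. Chromosomes 12 and 6 had the fewest, 0.486 and 0.491. Chromosome 11, the densest in both lists, held 106 distant peaks, the largest number, on the smallest share of ground beyond 10 kb (65.0% of its span). Median scores of the distant peaks were highest on chromosomes 13 and 17 (71.5 and 70.27) and lowest on chromosome 12 (56.9).

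**Figure D5:**
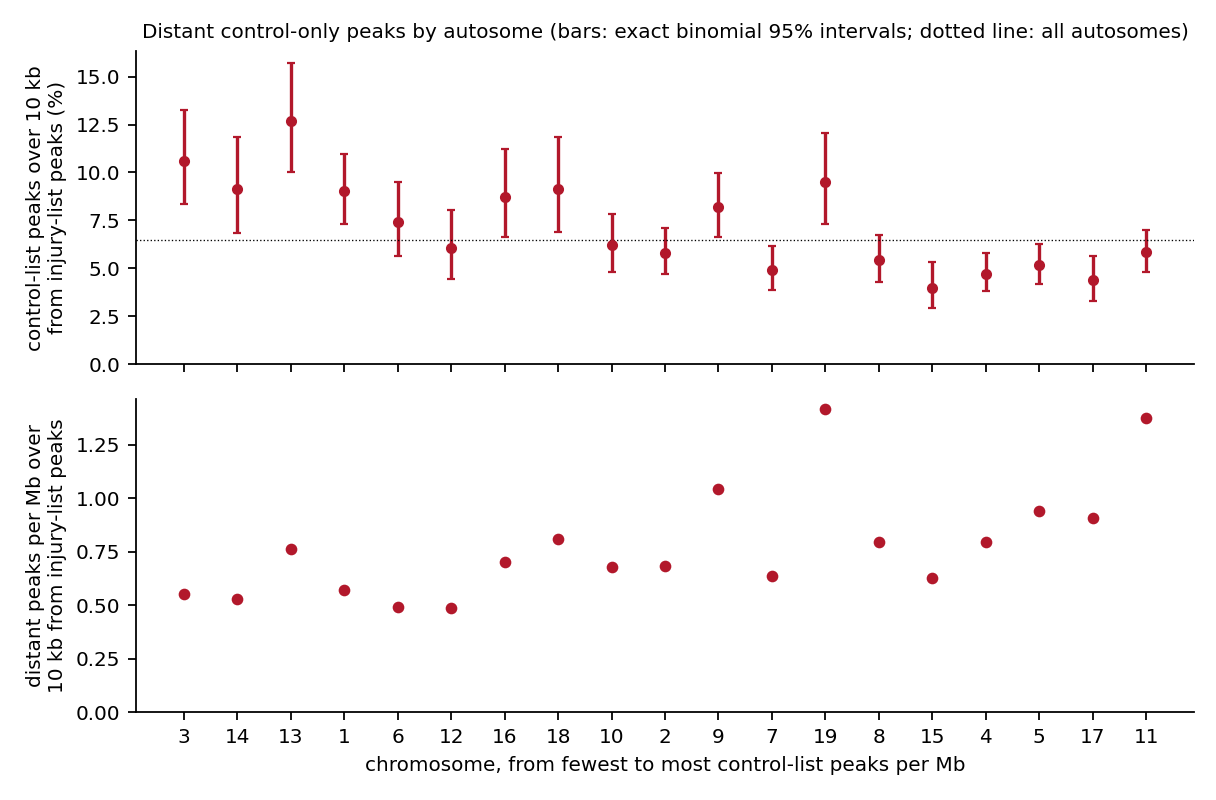
Distant control-only peaks as a share of each autosome's control-list peaks (top, %, with exact binomial 95% intervals) and per Mb of ground over 10 kb from injury-list peaks (bottom), with chromosomes ordered from fewest to most control-list peaks per Mb. The dotted line is the share over all autosomes, 6.48%; chromosome 13 stands highest in the top panel, and chromosomes 19 and 11 in the bottom one.

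Along chromosomes the distant peaks were spread more evenly than the control list. When the span from first to last peak was cut into 3 equal parts, the part that starts at the lowest coordinates held 28.2% of distant peaks (25.8 to 30.7%) and 22.8% of all control-list peaks. The middle part held 31.2% (28.7 to 33.7%) and 24.1%. The part with the highest coordinates held 40.6% (38.0 to 43.3%) and 53.1%. Mouse chromosomes have their centromere at the low end of the coordinates, so the control list was concentrated towards the end away from the centromere and the distant peaks less so. The distant share of control-list peaks was 8.39% (7.63 to 9.20%) in the middle part and 4.95% (4.55 to 5.38%) in the part with the highest coordinates. Where injury-list peaks lie along a chromosome bears on which peaks count as distant, and the part of this in the spread was not tested.

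Windows of 1 Mb seldom held several distant peaks. Of 1596 windows with a control-list peak, 892 held a distant one, 596 of them a single one, and none more than 5. The leading windows among the 6 with 5 were chromosome 11 from 86 to 87 Mb, where 5 of 8 control-list peaks were distant, chromosome 7 from 117 to 118 Mb, with 5 of 9, and chromosome 19 from 37 to 38 Mb, with 5 of 12. These windows held 15, 29 and 11 injury-list peaks, and the other 3, 4 and 7 control-list peaks there overlapped one of them or lay within 10 kb of one. With so few peaks the intervals were wide, 24.5 to 91.5% for the chromosome 11 window. The windows were picked for holding the most distant peaks and then for their share, and the intervals do not allow for that choice. In 130 windows every control-list peak was distant, 155 peaks in all, so most of these windows held a single control-list peak. A further count gave 59 windows with distant control-only peaks and no injury-list peak. In a window without injury-list peaks a control-list peak is distant by the rule unless it lies near the border.

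The most like class in the other list was the injury-list peaks more than 10 kb from every control-list peak. They numbered 19236, or 36.1% of the injury list on these chromosomes, with a median width of 1819 bp. Like the distant control-only peaks, they were narrower and scored lower than the overlapping peaks of their own list, with a median score of 72.18 against 139.995 on the scale of that list. Their median distance to the other list was 34.1 kb. The 2 shares cannot be set against each other, since a list with fewer peaks leaves more ground far from any of them.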

How the data were processed

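The data were 1 list of 5hmC peaks per group, matched to the 3 samples of a group through the list's name, which repeats their titles. Per the submitters' processing notes, CASAVA 1.4, Bowtie 0.12.9 and MACS 1.4.2 were used with the mm9 build. Settings, any pooling of mice, any input library and read numbers are not stated there. The authors deposited positions and a score for each peak, of 50 or more, taken here as the usual score of that peak caller, a logarithm of a p-value. The score grows with depth, so it was compared only within its own list, except for the named threshold. Positions are printed counting from 1.

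Distances were taken between peak edges, density counts between midpoints. All values were computed in Python 3.11.15 (pandas 2.3.3, numpy 2.4.6, scipy 1.17.1), figures were drawn with matplotlib 3.10.9, and the functions were tested on simulated intervals. Shares carry exact binomial (Clopper-Pearson) 95% intervals. With 1 list per group no test of the conditions is possible. No annotation or sequence of mm9 was used here, so no gene or sequence is named.

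The peaks and the rules were chosen with earlier results of these data known. Regions were named by a rule: the 10 highest scores, the 5 widest and 5 remotest, 3 on each side of the limit, the 3 leading runs and 1 Mb windows, the 3 with the fullest surroundings and the lowest score. The narrowest region was added after its value was seen. Alternatives changed the limit, score threshold, injury list, merging, chromosomes and flanks.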

Additional observations from a re-analysis of the deposited data

How the results depend on the processing

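With 5 kb as the limit 1900 peaks counted as distant, with peaks within 1 kb merged 1314 and with the X chromosome 1349, all within 1.5 times of 1331. The number was 841, 421 and 222 at limits of 20, 50 and 100 kb. It was 361 and 113 of control-list peaks at or above the 50th and 75th percentile of score. A shorter injury list leaves more ground, and gave 4768 distant peaks when cut to its highest-scoring 20555 peaks and 2952 at or above the control median score. The median score was then 66.2 and 64.8, and the median width 2138 and 2047 bp; at limits of 5, 20, 50 and 100 kb the width was 1988, 1806, 1727 and 1669 bp. Under each of these limits and injury lists distant peaks had the lowest median score and width of the 3 classes. Another control-list peak lay within 1, 5 and 50 kb of 1.95%, 7.51% and 51.2% of distant peaks, and within 10 kb of 23.9%, 6.78%, 4.51% and 2.25% at limits of 5, 20, 50 and 100 kb. Flanks of 100, 250 and 1000 kb held a median of 1, 4 and 19 control-list and 4, 13 and 58 injury-list peaks. The highest share was on chromosome 3 at 50 kb (4.77%) and the lowest on chromosome 5 at 100 kb (0.421%); at the other limits, with the 20555 injury-list peaks and with control-list peaks at or above the 50th percentile of score they were on chromosomes 13 and 15. The first and last of 5 equal parts of a chromosome held 17.4% and 25.3% of distant peaks. No paired analysis was possible because there is a single list for each group; leaving out a mouse was not possible for the same reason.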

Other observations

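On the X chromosome, outside the set above, 18 of 28 control-list peaks (64.3%, 44.1 to 81.4%) lay more than 10 kb from every injury-list peak, 3 others had no overlap and 7 overlapped. The 18 had scores from 60.75 to 255.27 with a median of 127.15, and were 1835.5 bp wide and 1109 kb distant in the median. The median score of the autosomal distant peaks was 62.84. Scores of the other X peaks were not summarised, so whether this contrast is particular to distant peaks was not tested. The injury list had only 33 peaks on X. So few leave more ground far from them, and the part of this in the share of 64.3% was not tested.

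A shorter injury list can only lengthen the distances of the 10 highest-scoring distant peaks. With the highest-scoring 20555 injury-list peaks alone, the distance of the leading chromosome 11 region grew from 167.5 to 3361 kb and that of the eighth, on chromosome 6, from 25.1 to 2068 kb. With the injury-list peaks at or above the control median score the first distance stayed at 167.5 kb and the second was 1987 kb. The fourth region, on chromosome 5, kept its distance of 36.8 kb.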
